A study of Homo sapiens with 3 samples.

Results

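The 10 genes described here are the markers and drivers by which an epithelial-mesenchymal transition (EMT) is usually read: the transcription factors SNAI1, SNAI2, TWIST1, TWIST2, ZEB1, ZEB2 and FOXC2, the cadherins CDH1 and CDH2, and VIM. They were taken by symbol from a table of 22464 Ensembl gene identifiers, and all 10 were found. The cells are SK-Hep-1, an established human line derived from a liver adenocarcinoma. All 3 groups are SK-Hep-1 lines that stably carry a lentiviral short hairpin RNA, with 1 library each. The shNC line carries a negative control hairpin, and the sh1089-1 and sh1089-2 lines each carry their own hairpin directed at LINC01089, a long noncoding RNA. All 3 lines therefore share lentiviral infection. Whether a line is a pool of cells or 1 clone is not given in the sources used here. LINC01089 itself was not analysed here, so no library label was checked against the targeted gene.

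In an EMT, epithelial cells loosen their junctions and take on a motile, mesenchymal state. E-cadherin, encoded by CDH1, holds neighbouring epithelial cells together and is tied to the actin cytoskeleton through catenins. SNAI1, SNAI2, ZEB1 and ZEB2 are zinc finger proteins that bind E-box sequences in the CDH1 promoter and repress it, while TWIST1 and TWIST2 are basic helix-loop-helix factors and FOXC2 is a forkhead factor. N-cadherin (CDH2) and vimentin (VIM), an intermediate filament protein, are the usual markers of the mesenchymal state. In liver cancer these genes are studied for their link to invasion.

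Values are FPKM, fragments scaled by gene length and by library total, as the authors deposited them. The low FPKM values are whole reads divided by gene length and library total, so reads could be worked out for all 10 genes. The library totals came to 10698480 reads in shNC, 9528312 in sh1089-1 and 8359832 in sh1089-2. Each group being 1 library, the spread between replicates is unknown and nothing was tested. Intervals given below are 95% exact intervals on the reads and cover counting error only. They treat each read as independent, and the reads carry no molecular identifiers, so the intervals may be too narrow. A difference was counted when log2(FPKM + 1) differed by at least log2 of 1.5, named 1.5-fold here, in a gene with a mean of at least 1 FPKM over the 3 libraries. Of the 10 genes 8 passed that filter, and SNAI1 and CDH1 did not. Fold values in the text are plain ratios of FPKM.

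The line was checked against cell type markers first. Of 8 epithelial markers, 4 reached 1 FPKM in every library, all of them keratins, and their list summed to 1661 FPKM in shNC, against 2580 in sh1089-1 and 2541 in sh1089-2. The other epithelial markers, CDH1, EPCAM, CLDN4 and ESRP1, stayed below 1 FPKM throughout. No endothelial marker of 9 listed reached 1 FPKM, and CDH5, the cadherin of endothelial cells, rested on 1 read in each library. Of 6 listed hepatocyte markers only SERPINA1 passed 1 FPKM, and TTR, APOA1 and FGB were at 0. Leukocyte markers summed to between 2.37 and 2.56 FPKM, stellate and fibroblast markers to between 20.02 and 25.3 FPKM, and the 2 erythroid markers were at 0. The source label names liver, and most hepatocyte genes in the table were at or near 0. The epithelial, fibroblast and hepatocyte sums were higher in both hairpin libraries, and each rested on a few genes. KRT8, KRT18 and KRT19 carried the epithelial sum, while KRT7 had 13.2, 5.75 and 3.89 FPKM and the list median was 6.79, 3.02 and 2.16. In the fibroblast list THY1 had 6.85, 12.2 and 11.9 FPKM and COL3A1 8.04, 6.44 and 8.39. The hepatocyte sum was 5.19, 6.39 and 8.36 FPKM, most of it SERPINA1. The part of these cell types in the values below was not tested.

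VIM was by far the most abundant of the 10 genes, and was higher in both hairpin libraries. It had 922 FPKM in shNC, against 1171 in sh1089-1 and 1445 in sh1089-2, on 51073, 57749 and 62531 reads. It held rank 27, 21 and 13 among 16858 protein-coding genes and took 0.477%, 0.606% and 0.748% of all reads. The control library was the lowest and sh1089-2 the highest, and in bulk RNA fewer cells of a type and less RNA per cell cannot be told apart. Against shNC the ratio was 1.27-fold (1.25 to 1.28) in sh1089-1 and 1.57-fold (1.55 to 1.59) in sh1089-2, so VIM passed 1.5-fold with the second hairpin only. The difference between the hairpin libraries was itself 1.23-fold (1.22 to 1.25). Counting error is small at this depth, and the spread between cultures has no estimate here. VIM (ENSG00000026025) lies on chromosome 10, plus strand, from 17228259 to 17237593 in GRCh38.

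On the log2(FPKM + 1) scale CDH2 gave the largest difference of the 10 genes against shNC in each hairpin library. It had 6.01 FPKM in shNC, against 11.3 in sh1089-1 and 12.3 in sh1089-2, on 298, 501 and 478 reads. Both hairpin libraries stood above the control, by 1.89-fold (1.63 to 2.19) and 2.05-fold (1.77 to 2.38), and differed from each other by 1.09-fold (0.957 to 1.24). On the log2(FPKM + 1) scale the differences were 0.82 and 0.93, short of 2-fold. Its level exceeded that of 66.9% of protein-coding genes in shNC and of 78.9% and 80.5% in the hairpin libraries. Its share of the summed FPKM of the 20 listed CDH genes was 28.4%, 37.3% and 36.4%. CDH2 (ENSG00000170558) lies on chromosome 18, minus strand, from 27950966 to 28177446. The gene length worked out from its values was 4634 bases, against 4950 in GENCODE 29, which bears on its level and not on its ratios.

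The promoters of VIM and CDH2 are shown because these genes were the ones above shNC past 1.5-fold. Both are RefSeq sequence on GRCh38.p14, from 250 bases before the annotated start to 50 after it. Entries of that promoter set were used for 5 of the 10 genes, and the other genes are not shown to lack an entry. Capitals mark GC boxes (GGGCGG or CCGCCC), and in neither promoter was there a match to CAGGTG or CACCTG, the E-box bound by the Snail and ZEB factors. The VIM sequence is chr10:17227991-17228290 on the plus strand, and the CDH2 sequence is chr18:28177081-28177380 on the minus strand. RefSeq starts differ from the GENCODE 29 gene spans given here, and the whole CDH2 window lies within the CDH2 span.
VIM: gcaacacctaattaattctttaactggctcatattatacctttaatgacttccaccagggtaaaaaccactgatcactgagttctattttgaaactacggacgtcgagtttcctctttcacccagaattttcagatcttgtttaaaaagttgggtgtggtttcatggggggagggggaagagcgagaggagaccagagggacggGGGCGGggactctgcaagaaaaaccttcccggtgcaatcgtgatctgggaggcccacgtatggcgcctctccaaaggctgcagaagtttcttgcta
CDH2: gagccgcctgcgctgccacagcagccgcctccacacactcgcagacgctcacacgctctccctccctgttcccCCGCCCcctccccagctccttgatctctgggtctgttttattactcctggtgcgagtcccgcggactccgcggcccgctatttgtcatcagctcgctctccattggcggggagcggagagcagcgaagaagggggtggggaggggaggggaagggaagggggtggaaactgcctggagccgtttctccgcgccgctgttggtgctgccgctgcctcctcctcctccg
Each held 1 GC box, which 45.0% of the 35116 promoters in the set hold at least once. E-boxes of any kind (CANNTG) were found in 68.7% of promoters and in neither of these. RefSeq gives CDH2 another start, with the window chr18:28036592-28036891 on the minus strand, which holds 1 such E-box and no GC box. The GC content was 48.0% for VIM and 67.0% for CDH2, against a median of 58.7% over all promoters. Matches of letters are a description of these windows and show no binding.

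CDH1 was close to absent in all 3 libraries. It had 0.0459 FPKM in shNC, against 0 in sh1089-1 and 0.118 in sh1089-2, on 3, 0 and 6 reads. For the 0 reads of sh1089-1 the exact 95% interval reaches 0.0634 FPKM, and 3 reads would give 0.0516 FPKM. Neither hairpin library differed from shNC detectably at this depth. Between the hairpin libraries, 6 reads against 0 give a ratio whose interval starts at 1.34, and it rests on those 6 reads. CDH1 (ENSG00000039068) lies on chromosome 16, plus strand, from 68737225 to 68835548.

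**Figure D1:**
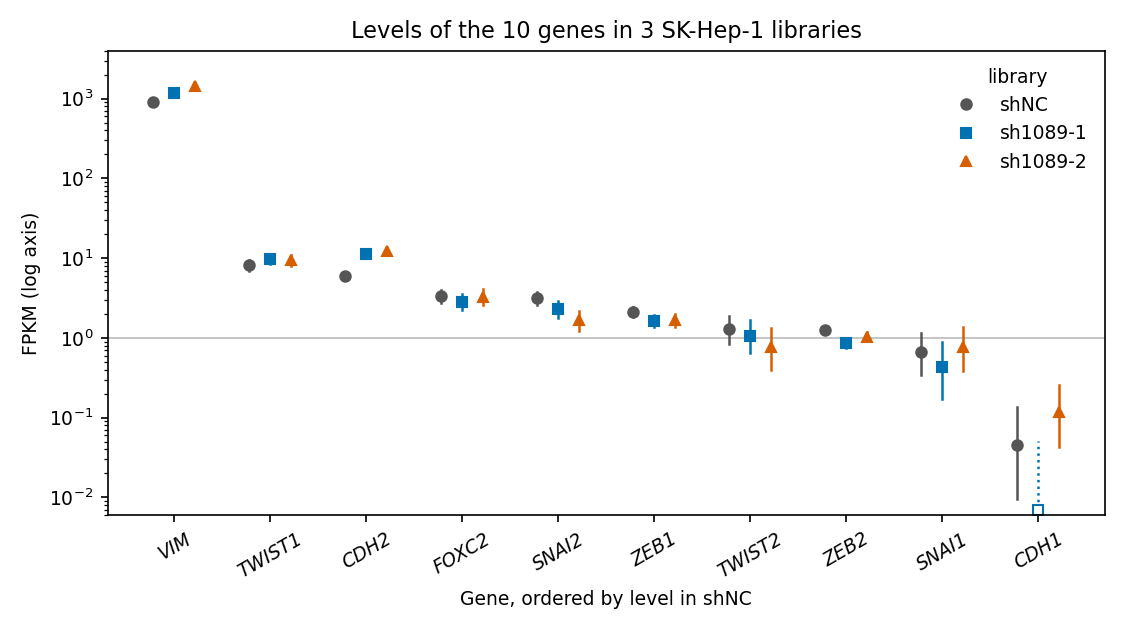
FPKM on a log axis of the 10 genes in the shNC, sh1089-1 and sh1089-2 libraries, with 95% counting intervals as bars; the open square with a dotted bar marks 0 reads and the level that 3 reads would give. VIM sits between 922 and 1445 FPKM, TWIST1 and CDH2 between 6.01 and 12.3, and CDH1 at or below 0.118 in each library.

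The Snail factors were low, and SNAI2 was the only transcription factor of the 7 counted as past 1.5-fold on the log2(FPKM + 1) scale in any comparison. SNAI2, also named Slug, had 3.14 FPKM in shNC, against 2.29 in sh1089-1 and 1.65 in sh1089-2, on 114, 74 and 47 reads. Both hairpin libraries lay below the control. The ratios were 1.37-fold lower (1.02 to 1.86) and 1.90-fold lower (1.34 to 2.72). Between the hairpins the ratio of 0.724 had an interval of 0.491 to 1.06, so a difference between them was not detectable at this depth. SNAI2 (ENSG00000019549) lies on chromosome 8, minus strand, from 48917604 to 48921740. SNAI1, also named Snail, rested on 12, 7 and 11 reads, with 0.658, 0.431 and 0.772 FPKM. Its ratios to shNC were 0.655 (0.218 to 1.80) and 1.17 (0.469 to 2.90), intervals that reach past 1.5-fold in either direction. SNAI1 (ENSG00000124216) lies on chromosome 20, plus strand, from 49982999 to 49988886.

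TWIST1 was the most abundant of the transcription factors and made up 40.9%, 52.0% and 50.7% of their summed FPKM. It had 8.14 FPKM in shNC, against 9.88 in sh1089-1 and 9.46 in sh1089-2, on 174, 188 and 158 reads. Both hairpin libraries were above the control, at 1.21-fold (0.982 to 1.5) and 1.16-fold (0.931 to 1.45), but both intervals include 1. The paralog TWIST2 had 1.30, 1.07 and 0.768 FPKM, on 26, 19 and 12 reads. Its ratios were 0.821 (0.429 to 1.54) and 0.591 (0.272 to 1.21), below shNC in both and with intervals that include 1. The lower of these is past 1.5-fold as a plain ratio but not on the log2(FPKM + 1) scale, where the difference was -0.38. TWIST1 thus stood 6.26-fold above TWIST2 per length in shNC, 9.26-fold in sh1089-1 and 12.3-fold in sh1089-2. These ratios rest on the few reads of TWIST2 and have no interval, so no trend is read from them. TWIST1 (ENSG00000122691) is on chromosome 7, minus strand, from 19020991 to 19117672, and TWIST2 (ENSG00000233608) is on chromosome 2, plus strand, from 238848032 to 238910543. No stretch of 50 bases is shared by their annotated transcripts.

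ZEB1 and ZEB2 were both lower in the hairpin libraries, and neither passed 1.5-fold. ZEB1 had 2.11 FPKM in shNC, against 1.64 in sh1089-1 and 1.67 in sh1089-2, on 195, 135 and 121 reads. It was 1.29-fold lower (1.03 to 1.61) and 1.26-fold lower (0.999 to 1.59). ZEB2 had 1.27, 0.871 and 1.04 FPKM, on 340, 208 and 218 reads, and was 1.46-fold lower (1.22 to 1.74) and 1.22-fold lower (1.03 to 1.45). The control was the highest library for both genes. The 2 hairpin libraries did not differ detectably in either, at 1.02-fold (0.793 to 1.32) for ZEB1 and 1.19-fold (0.983 to 1.45) for ZEB2. ZEB2 gave more reads than ZEB1 but a lower FPKM, because its gene length in the table is 25058 bases against 8650. SPTLC1P1, a pseudogene annotated within ZEB1 on the same strand, had 3.94, 2.41 and 2.29 FPKM, above ZEB1 and also lower in both hairpin libraries. No 50-base stretch of the annotated ZEB1 transcripts occurs in another gene's transcripts. ZEB1 (ENSG00000148516) lies on chromosome 10, plus strand, from 31318495 to 31529814, and ZEB2 (ENSG00000169554) on chromosome 2, minus strand, from 144364364 to 144524583.

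The promoter of ZEB1 is shown because it holds the E-box that the Snail and ZEB proteins themselves recognise. RefSeq gives ZEB1 several starts in this set, and the window shown lies within the ZEB1 gene span given above. The window with the most such E-boxes is chr10:31318966-31319265 on the plus strand of GRCh38.p14, chosen for that count, with E-boxes (CAGGTG or CACCTG) and the GC box (GGGCGG or CCGCCC) in capitals.
ZEB1: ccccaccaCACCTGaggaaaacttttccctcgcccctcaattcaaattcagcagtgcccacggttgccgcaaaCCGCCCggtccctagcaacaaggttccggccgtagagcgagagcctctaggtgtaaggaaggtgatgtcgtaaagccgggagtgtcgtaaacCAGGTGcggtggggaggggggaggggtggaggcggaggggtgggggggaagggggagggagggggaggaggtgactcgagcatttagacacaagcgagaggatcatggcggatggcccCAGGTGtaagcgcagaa
It holds 3 such E-boxes, while 5 of the 7 ZEB1 windows hold none. Of all promoters of that length 20.6% hold at least 1, a share for single windows and not for the best of several.

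ZEB1 and ZEB2 also share target sites of the miR-200 family, small RNAs that keep epithelial cells epithelial by repressing both genes. The family falls into 2 seed groups, shown here with the seed (bases 2 to 8) in capitals, from RefSeq on GRCh38.p14.
hsa-miR-200b-3p: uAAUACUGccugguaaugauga
hsa-miR-200c-3p: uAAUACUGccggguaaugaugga
hsa-miR-429: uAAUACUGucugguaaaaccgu
hsa-miR-200a-3p: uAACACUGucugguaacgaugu
hsa-miR-141-3p: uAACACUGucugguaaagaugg
The seed AAUACUG of miR-200b, miR-200c and miR-429 pairs with CAGTATT in an mRNA, and the seed AACACUG of miR-200a and miR-141 with CAGTGTT. Searched on the mRNA strand, in the transcript with the longest 3′ UTR, ZEB1 held 6 sites of CAGTATT and ZEB2 held 5. Of 16640 genes compared, 17.2% held at least 1, 7 genes held 5 or more, and only 3 genes held 6 or more. These shares take no account of length, and the 3′ UTR searched was 2549 bases in ZEB1 and 5370 in ZEB2. For CAGTGTT, ZEB1 held 3 sites and ZEB2 held 4, where 19.7% of genes held at least 1, 194 genes held 3 or more and 56 held 4 or more. Among the other 8 genes SNAI2 held 1 site of CAGTATT, and no other site of either kind was found. Per kilobase of 3′ UTR, CAGTATT came to 0.831 in SNAI2, 0.931 in ZEB2 and 2.35 in ZEB1. The hairpin genes MIR200A, MIR200B and MIR429 are listed at 0 in all 3 libraries, but these libraries were enriched for mRNA and do not measure mature miRNAs. A match of letters shows no repression.

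FOXC2, a forkhead factor of mesenchymal tissue and lymphatic vessels, did not pass 1.5-fold in either hairpin library. It had 3.32 FPKM in shNC, against 2.82 in sh1089-1 and 3.30 in sh1089-2, on 103, 78 and 80 reads. The ratios were 0.850 (0.625 to 1.15) and 0.994 (0.733 to 1.34), so a level up to 1.60-fold lower in sh1089-1 lies within the counting interval. FOXC2 (ENSG00000176692) lies on chromosome 16, plus strand, from 86566829 to 86569728. Of its annotated 50-base stretches, 20 of 2851 also occur in FOXC1.

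**Figure D2:**
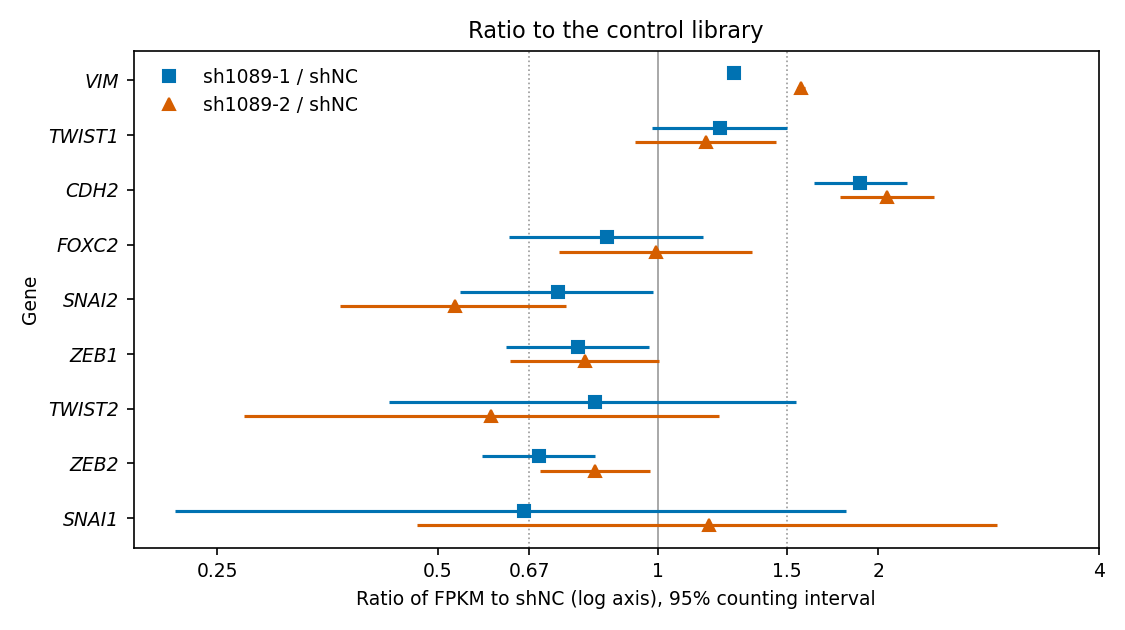
Ratio of FPKM in each hairpin library to shNC on a log axis, with 95% counting intervals as bars, for 9 of the 10 genes (CDH1, with 3, 0 and 6 reads, is left out). The dotted lines mark 1.5-fold either way. By plain ratio CDH2 lies beyond 1.5-fold in both libraries, VIM, SNAI2 and TWIST2 in sh1089-2 and SNAI1 in sh1089-1. The bars of TWIST1, TWIST2, FOXC2 and SNAI1, and of ZEB1 in sh1089-2, cross 1.

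Counted over the genes that passed the filter, 1 of 8 was past 1.5-fold in sh1089-1 against shNC, CDH2, against 11.1% of all 11198 genes (5.27% higher and 5.83% lower). In sh1089-2 against shNC it was 3 of 8, with CDH2 and VIM higher and SNAI2 lower, against 10.5% of all genes (4.89% higher and 5.63% lower). Between the hairpin libraries it was 0 of 8, against 4.78% of all genes. CDH2 was the only member past 1.5-fold in both hairpin libraries, and 3.08% of all genes were higher in both by that rule. The count in sh1089-1 was near the background share. Counting intervals left out 1 in 5 of 8 genes for sh1089-1 (VIM, CDH2, SNAI2, ZEB1 and ZEB2) and in 4 of 8 for sh1089-2 (VIM, CDH2, SNAI2 and ZEB2), where 52.6% and 49.7% of all genes did so. Between the hairpin libraries VIM alone did, 1 of 8, against 37.8% of all genes. At 2-fold none of the 8 was counted in any comparison, against 2.88%, 3.24% and 1.72% of all genes. Both comparisons use the same shNC library, so a value peculiar to that library enters both. An effect of the hairpins cannot be told apart from a difference between these lines as cultures.

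**Figure D3:**
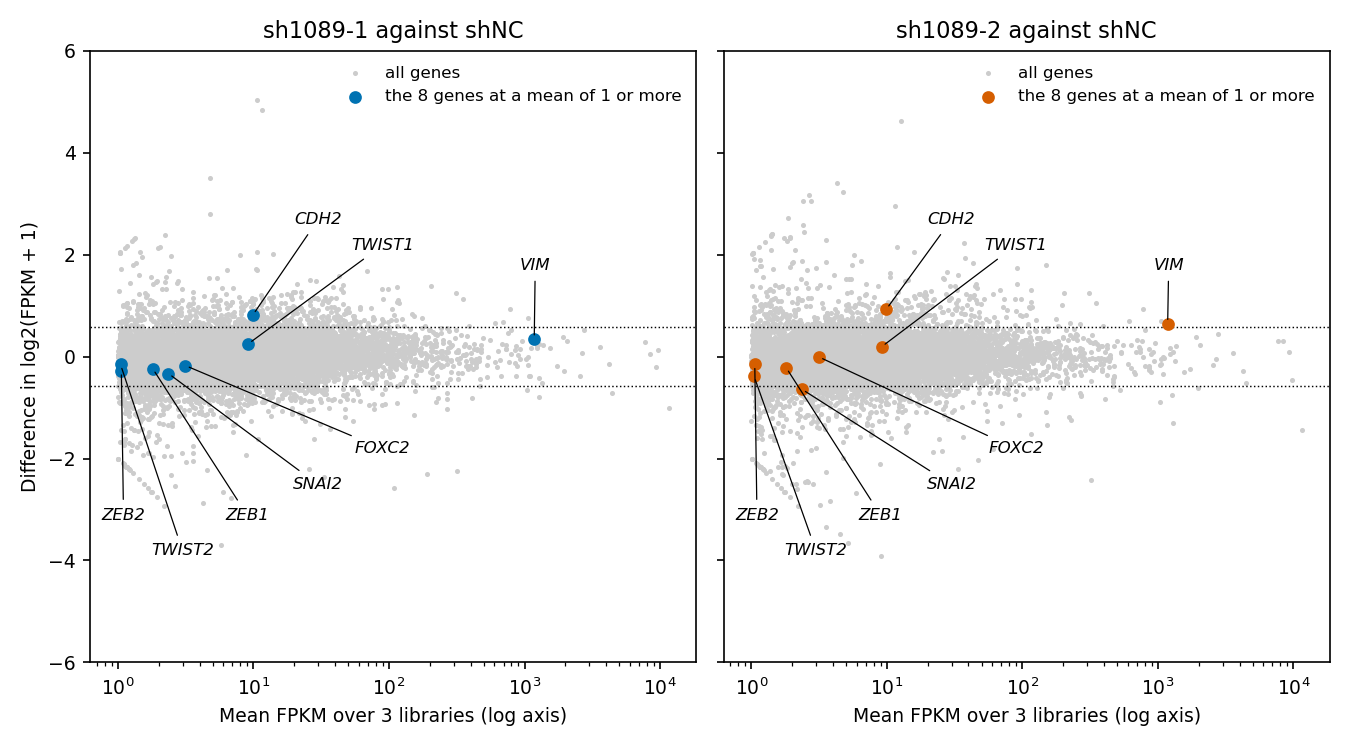
Difference in log2(FPKM + 1) from shNC against the mean FPKM of each gene (log axis) for all 11198 genes in grey and the 8 genes that passed the filter in colour, by hairpin library. The dotted lines mark 1.5-fold. CDH2 lies at 0.82 and 0.93, VIM at 0.34 and 0.65, and the remaining genes lie within the dotted lines except SNAI2 at -0.64 in sh1089-2.

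The order of the 10 genes by FPKM was nearly the same in the 3 libraries. In shNC it ran VIM, TWIST1, CDH2, FOXC2, SNAI2, ZEB1, TWIST2, ZEB2, SNAI1 and CDH1. TWIST1 (6.98 to 9.45) and CDH2 (5.35 to 6.73) had intervals that did not overlap in shNC. In both hairpin libraries CDH2 stood above TWIST1, with overlapping intervals in sh1089-1 (10.4 to 12.4 against 8.52 to 11.4) and separate ones in sh1089-2 (11.3 to 13.5 against 8.05 to 11.1). FOXC2 and SNAI2 overlapped in shNC and sh1089-1. In sh1089-2 their intervals were 2.62 to 4.11 and 1.22 to 2.20, and SNAI2 was level with ZEB1, at 1.65 against 1.67 FPKM. TWIST2, ZEB2 and SNAI1 were not told apart in sh1089-2. Summed over the 7 transcription factors, the level was 19.9, 19.0 and 18.7 FPKM.

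Other genes of the same biology were then set beside the 10 genes, by lists of known partners and targets. For scale, the median difference over all 11198 genes was -0.03 in sh1089-1 and -0.04 in sh1089-2, and 3.08% of genes were higher and 2.79% lower past 1.5-fold in both. For genes of these lists, higher or lower in both means past 1.5-fold in both hairpin libraries. Of 4 other cadherins at 1 FPKM or more, CDH4 (R-cadherin) was higher in both, with 2.18 FPKM in shNC, 3.78 with the first hairpin and 4.52 with the second (the order of all values below), and the most abundant, CDH24, had 5.76, 8.51 and 8.01. Of 8 catenins and partners none passed 1.5-fold in both, and CTNNA1, alpha-catenin, had 48.9, 45.6 and 57.7 FPKM. The medians of the catenins were -0.03 and 0.29. Of 12 genes of cadherin processing and turnover, ARF6, a GTPase of membrane recycling, was lower in both, with 124, 73.8 and 69.4 FPKM.

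Epithelial and mesenchymal target genes stood on both sides of shNC. Of 17 epithelial junction and keratin genes, KRT18 and KRT19 were higher in both and CLDN1, a tight junction gene, lower, with medians of -0.32 and -0.01. KRT18 had 739, 1244 and 1203 FPKM, and CLDN1 had 19.2, 11.3 and 8.54. Of 13 mesenchymal genes, THY1, a surface glycoprotein, was higher in both, and LOX, a collagen crosslinking enzyme, and S100A4, a calcium-binding protein, were lower, with medians of -0.32 and -0.04. VIM and CDH2 were above shNC in both hairpin libraries, while 8 of these 13 genes were below it in both and 1 was above it in both. By any amount, 42.3% of all 11198 genes were below shNC in both and 33.3% above it in both. Of 6 other intermediate filament and lamin genes at 1 FPKM or more, LMNB1 and LMNB2, nuclear lamins, were higher in both, and LMNA had 215, 271 and 269 FPKM. LMNB1 was 2.02-fold (1.86 to 2.19) and 2.05-fold (1.89 to 2.23) above shNC. That list had medians of 0.24 and 0.25.

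Regulators of the 7 transcription factors were measured too. Of 7 other EMT-linked transcription factors at 1 FPKM or more, SOX9 was higher in both, at 19.4, 31.9 and 31.5 FPKM, and YBX1, the most abundant, had 317, 348 and 311. The medians were 0.12 and 0.19. Of 10 factors of the epithelial state only KLF4 reached a mean of 1 FPKM, with 4.80, 6.73 and 7.25, and GRHL2 and ELF5 were at 0 in each library. Of 16 corepressors that the Snail and ZEB factors recruit, SUV39H1, a histone H3 lysine methyltransferase, was higher in both, at 5.36, 12.8 and 12.4 FPKM, with list medians of 0.07 and 0.11. PRMT5, the most abundant, had 50.6, 53.1 and 52.9 FPKM. Of 18 regulators of the factors' protein stability, LATS2, a kinase of the Hippo pathway, was lower in both, at 39.0, 18.6 and 25.5 FPKM, with medians of -0.03 and -0.09. LOXL2, which binds SNAI1, had 63.2, 73.8 and 87.2 FPKM. Of 11 TGF-beta genes, TGFB2 and the receptor TGFBR1 were lower in both and none was higher past 1.5-fold, with medians of -0.17 and -0.22. TGFBR1 had 5.82, 2.98 and 2.91 FPKM, and TGFB1, the most abundant, 76.6, 84.0 and 91.8.

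**Figure D4:**
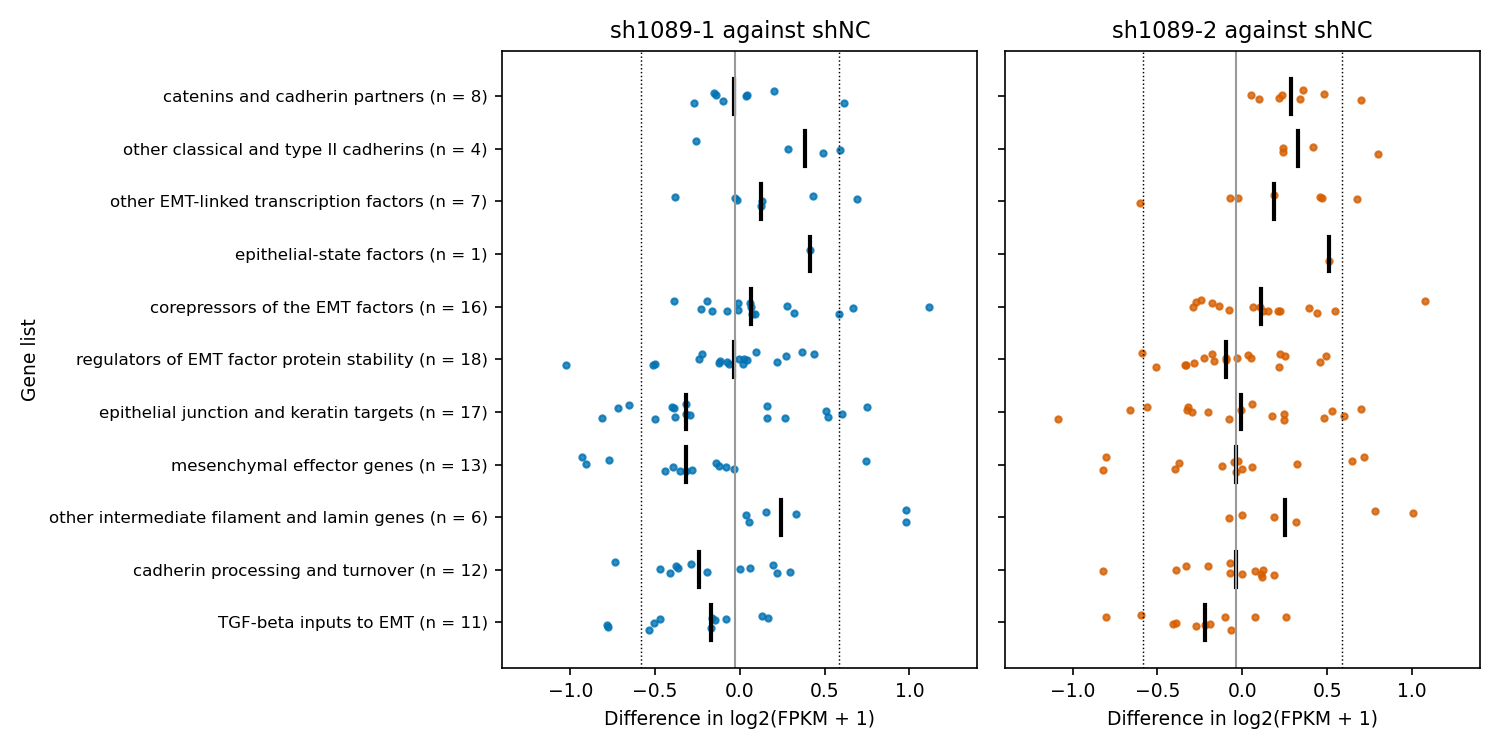
Difference in log2(FPKM + 1) from shNC of each gene in 11 lists, by hairpin library, for genes with a mean of at least 1 FPKM. Points are genes, black bars list medians, the grey line the median of all genes and the dotted lines 1.5-fold. The medians lie between -0.32 and 0.42 in sh1089-1 and between -0.22 and 0.51 in sh1089-2.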

How the data were processed

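Total RNA of SK-Hep-1 lines was enriched for mRNA and made into strand-specific libraries, per the labels' protocols. The authors deposited FPKM values for 3 libraries, 1 per group. FastQC, StringTie and build GRCh38 are named in the submitters' processing notes, without versions. Aligner, annotation release and strand use in counting were not given in the sources used here. For 7 of the 10 genes GENCODE 29 has a gene on the opposite strand, and reads of such pairs could then not be told apart. Genes on the same strand also overlap some of the 10. Identifiers were matched to symbols (22375 of 22464) and to GENCODE 29 (22444). Whole reads were worked out from the FPKM steps: a length giving whole reads in all 3 libraries was found for 100% of the 19219 genes above 0, counting a value as whole within at most 0.05 read. It equalled the GENCODE 29 exon length for 61.9% and lay within 5% of it for 93.4%. The nearest fitting length to GENCODE 29 was taken, and the steps were tested on simulated data. For a gene with many reads, several lengths can fit within that tolerance. The 100% is therefore no check of the reads of such genes. Differences are of log2(FPKM + 1), a scale that understates changes of low genes, for 11198 genes with a mean of at least 1 FPKM. Ratio intervals are 95% Clopper-Pearson intervals, and level intervals are exact Poisson intervals. No count test was run, and no gene has a p-value. Genes named are the 10 genes, list members past 1.5-fold in the same direction in both hairpin libraries, the most abundant gene of each list, markers and, by likeness, the 2 nearest genes. A gene that this rule would name is not reported here. The genes and lists were chosen with earlier results of these data known. Python 3.11.15, numpy 2.4.6, pandas 2.3.3 and scipy 1.17.1 were used.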

Additional observations from a re-analysis of the deposited data

Results flagged for a closer look

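SNAI1 and CDH1 lay on opposite sides of shNC in the hairpin libraries, and neither difference was tested. SNAI1 was 1.79-fold higher in sh1089-2 than in sh1089-1, with a counting interval of 0.634 to 5.45 that includes 1. CDH1 had 3 reads in shNC, 0 in sh1089-1 and 6 in sh1089-2, and no fold is given because the control and the first hairpin are at or under the limit of 3 reads.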

How the results depend on the processing

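No paired analysis was possible because each group is 1 library. The number of the 10 genes past 1.5-fold was 1 in sh1089-1 against shNC, and stayed at 1, with CDH2 each time, under a pseudocount of 0.1, no filter on low values, a mean of at least 5 FPKM, rescaling to TPM, scaling by median of ratios and plain ratios. In sh1089-2 against shNC it was 3, ranged from 2 to 4 under the same alternatives, and reached 4 where TWIST2 passed (a pseudocount of 0.1 and plain ratios). At a mean of at least 5 FPKM SNAI2 was left out by the filter. At 2-fold in place of 1.5-fold, with the pseudocount of 1, the number was 0 in both comparisons. That 0 depends on pseudocount and scaling: CDH2 in sh1089-2 was at 1.03 under a pseudocount of 0.1, 1.07 under TPM and 1.04 by plain ratio, all past 2-fold. Plain ratios and the 2-fold rule were chosen after seeing the data. Between the hairpin libraries the number was 0 under every alternative listed. Filters leave a gene's own difference as it is, and of 96 single-gene differences recomputed under another pseudocount, scaling or plain ratios, 5 moved beyond the counting interval, and all 5 were of VIM under rescaling to TPM or by median of ratios. Against shNC these were 0.37 and 0.72 under TPM and 0.32 in sh1089-1 by median of ratios, and between the hairpins 0.35 and 0.34. Each shift was judged against the gene's own counting interval, which is narrowest for VIM. Small shifts of VIM were therefore flagged, and larger shifts of genes with fewer reads were not. By plain ratio in sh1089-2 against shNC, SNAI2 went from -0.64 to -0.92 and TWIST2 from -0.38 to -0.76, unflagged. Of the differences, 1 changed sign, FOXC2 in sh1089-2 against shNC, which is near 0. The number of all genes past 1.5-fold, 1243 in sh1089-1 and 1178 in sh1089-2 against shNC and 535 between the hairpins, ranged from 652 to 2017, 589 to 1933 and 176 to 1165 without the 2-fold rule, and was 323, 363 and 193 with it. SNAI1, TWIST2 and CDH1 are limited by depth, at no more than 12, 26 and 6 reads in a library.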

Other observations

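The neighbourhoods of the 10 genes on their chromosomes were looked at, by the 20 nearest protein-coding genes with a mean of at least 1 FPKM and at least 100 reads. These are wide: the farthest gene lay 4.05 megabases from VIM, 4.62 from ZEB1, 6.44 from SNAI2, 6.50 from CDH2 and 8.68 from ZEB2. Around CDH2 the median difference from shNC was -0.17 in sh1089-1 and -0.18 in sh1089-2, opposite in sign to CDH2 itself at 0.82 and 0.93. Around VIM it was -0.04 and -0.14, also below VIM at 0.34 and 0.65. Around ZEB1, on the same chromosome as VIM, the medians were -0.25 and -0.25, close to ZEB1's own -0.24 and -0.22. Around ZEB2 they were -0.16 and -0.20, beside its own -0.28 and -0.15. SNAI2 stood at -0.33 and -0.64 among genes with medians of -0.02 and 0.03. For ZEB1 and ZEB2 the part of their neighbourhood in the values was not tested. Values for the neighbourhoods of CDH1, SNAI1, TWIST1, TWIST2 and FOXC2 are left out here.

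By the distance between the 2 differences from shNC, over 3 libraries and 10121 other protein-coding genes, the genes most like CDH2 were IFIT2 and CEP72, at 0.01 and 0.03. In the order shNC, sh1089-1, sh1089-2, IFIT2 had 20.6, 36.8 and 40.0 FPKM, and CEP72 had 1.82, 3.89 and 4.43. VIM was nearest to SOWAHD and IL22RA1, and SNAI2 to FAM3C and TLK1. TWIST1 was nearest to EOLA2 and TM7SF2, ZEB1 to CRK and TYW1, ZEB2 to SRD5A1 and KIF3B, and FOXC2 to TNKS and SPAG4. Within a distance of 0.1 there were 14 genes for CDH2, 38 for VIM and 71 for SNAI2, against 480 to 618 for TWIST1, ZEB1, ZEB2 and FOXC2, so the latter share their pattern with many genes.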
